A study of Mus musculus with 3 samples.

Results

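The amino acid transporter families of the plasma membrane and lysosome were read in 2 sorted stromal populations of mouse bone marrow. The genes were those whose only symbol in the platform annotation was a numbered member of the solute carrier families Slc1, Slc3, Slc6, Slc7, Slc36, Slc38 or Slc43, and 60 of the 19938 genes measured met this rule. They comprised 7 genes of Slc1, 2 of Slc3, 18 of Slc6, 15 of Slc7, 4 of Slc36, 11 of Slc38 and 3 of Slc43.

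The data are 3 single-colour Affymetrix arrays. On 2 of them were CXCL12-abundant reticular (CAR) cells, a marrow stroma rich in the chemokine Cxcl12, sorted from 2 CXCL12-GFP knock-in mice. The third held cells gated as PDGFRa+ Sca+ CD45- lineage- (PaS) and combined from 3 mice of genotype Prx1-Cre Rosa26Ai9/+ Cxcl12gfp/+. Both populations came from tibia, femur and pelvis at baseline, and all mice carried GFP at the Cxcl12 locus. Prx1-Cre is active in limb mesenchyme, so genotype and cell type differed together, and the single pooled PaS array has no replicate error of its own. The labels state neither ages nor whether the CAR mice carried 1 or 2 copies of the GFP allele.

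Amino acids cross membranes only through carriers, and cells take up what they need for protein synthesis, glutathione, osmotic balance and signalling through families that differ in substrate and in driving force. Most Slc7 light chains form disulfide-linked pairs with an Slc3 heavy chain, and they mostly exchange one amino acid for another. Slc1, Slc6 and Slc38 carriers use the sodium gradient, and Slc36 carriers such as Slc36a1 use protons. Several Slc36 and Slc38 members sit in the lysosome, where amino acid supply is read out to the growth kinase mTORC1.

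Values are log2 of the array intensity, so a difference of 1 is 2-fold. Probe sets respond differently to the same amount of RNA. Levels were therefore compared between arrays for 1 gene at a time and not between genes, except that a gene below the median of all genes on an array (3.74 and 3.75 for the CAR pair, 3.77 for PaS) is called dim. Differences are CAR mean minus PaS with limma's standard error (SE), and a gene was called where its Benjamini-Hochberg adjusted p over all 19938 genes was under 0.05. The series names 2 mice for the CAR arrays without saying that each array is 1 mouse, so p-values measure the spread between these arrays, which may be technical.

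The arrays as a whole carried differences that touch every value below. All 9 measured markers of CAR stroma were higher in CAR cells, including Pdgfra (log2 difference 3.42), the receptor used to gate PaS cells. The 6 pan-leukocyte markers, Ptprc (CD45) among them, were all lower in CAR cells, with summed intensities of 192 and 233 on the CAR arrays and 1544 on the array labelled PaS. The values of Ptprc (5.11 and 5.01 against 8.27) run against the CD45- label of the PaS array. For its Sca+ label, 4 of 6 measured markers of Sca-1+ fibroblasts were called lower in CAR cells (sums 53.4 and 48.1 against 563). The gene of Sca-1 itself, Ly6a, is not analysed here. The same sums were 2836, 2545 and 14620 for 8 neutrophil markers, of which 6 were called lower, and 70.4, 70.4 and 368 for 6 endothelial markers, of which 4 were called lower. Sums for 7 macrophage markers were 176, 174 and 1074, with 3 called lower, and for 5 cartilage and joint markers 117, 142 and 1601, with 2 called lower. Prg4 alone held 18.0, 49.0 and 1411 of the cartilage and joint sums. The cartilage collagen Col2a1 had a log2 difference of only -0.19, and 1 of the 5 differences was positive. B lymphoid markers had sums of 478, 396 and 476 over 5 genes, and Ebf1, called higher, held 401 and 334 of the CAR sums. On the array labelled PaS Ebf1 stood at an intensity of 59. The other 4 were lower in CAR cells, and 3 of them were called. Their log2 differences were -3.96 for Rag1, -3.05 for Cd79b and -2.28 for Cd79a. Sums of 4 erythroid markers were 42.9, 206 and 461, with 1 called lower. Car1 held 8.22, 165 and 391 of these and was unequal on the CAR arrays at log2 values of 3.04 and 7.37. Differences were negative for 3 of the 4 and positive for Alas2 (0.77). No marker was listed at 0. The part of these cell types in any transporter difference was not tested, and in sorted bulk RNA fewer cells of a type and less RNA per cell cannot be told apart. Values also spread less widely on the array labelled PaS, at both ends. The 5th percentiles over genes were 1.87 and 1.69 on the CAR arrays and 2.40 on the array labelled PaS. The 95th percentiles were 6.69 and 6.93 against 6.16, and the ranges between the quartiles 1.96 and 2.28 against 1.35. The part of this narrower spread in any transporter difference was not tested.

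Promoter sequences of 3 genes that were called between the arrays, and of Slc7a11 as a textbook target of the amino acid response, are shown first because carriers are known to be induced through promoter elements when amino acids run short. The RefSeq table (build GRCm38.p6) held promoter windows for 43 of the 60 genes, 64 windows in all. It held none for Slc6a6, Slc38a1 or Slc7a12. Each sequence is the 250 bases before an annotated start, 5′ to 3′ on the strand of the gene. Capitals mark the motifs searched on both strands. These were the C/EBP-ATF response element core (TGATGNAA), the antioxidant response element core (TGACNNNGC), the E-box (CACGTG), the cAMP response element (TGACGTCA), the CCAAT box (CCAAT) and the GC box (GGGCGG).
Slc38a6 (chr12:73286598-73286847, + strand): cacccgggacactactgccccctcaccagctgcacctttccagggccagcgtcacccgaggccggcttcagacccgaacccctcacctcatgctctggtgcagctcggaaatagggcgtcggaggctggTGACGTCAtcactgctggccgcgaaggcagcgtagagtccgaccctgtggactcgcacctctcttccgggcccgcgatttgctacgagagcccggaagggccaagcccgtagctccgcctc
Slc43a2 (chr11:75531444-75531693, + strand): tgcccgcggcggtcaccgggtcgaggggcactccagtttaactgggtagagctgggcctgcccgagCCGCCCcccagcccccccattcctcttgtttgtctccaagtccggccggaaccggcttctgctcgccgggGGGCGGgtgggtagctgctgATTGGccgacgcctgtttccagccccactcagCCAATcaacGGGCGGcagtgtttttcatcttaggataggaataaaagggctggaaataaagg
Slc38a11 (chr2:65364027-65364276, - strand): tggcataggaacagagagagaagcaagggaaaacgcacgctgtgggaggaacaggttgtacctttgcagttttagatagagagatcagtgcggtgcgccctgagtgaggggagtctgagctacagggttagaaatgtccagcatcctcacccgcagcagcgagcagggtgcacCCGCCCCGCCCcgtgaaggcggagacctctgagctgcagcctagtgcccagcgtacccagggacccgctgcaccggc
Slc7a11 (chr3:50443614-50443863, - strand): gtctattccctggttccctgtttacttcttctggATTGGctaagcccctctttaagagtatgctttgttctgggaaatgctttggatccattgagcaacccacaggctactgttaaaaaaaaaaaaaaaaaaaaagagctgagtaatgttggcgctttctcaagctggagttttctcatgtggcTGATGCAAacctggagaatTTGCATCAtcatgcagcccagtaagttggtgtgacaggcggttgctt

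In the Slc7a11 window the C/EBP-ATF core began 66 and 47 bases before the start, once on each strand. The core was present in 6.25% of the 64 windows of the transporter genes and in 3.45% of all 32851 windows. Only Slc7a11, Slc7a7 and Slc6a21 held it. The Slc38a6 window held a cAMP response element 121 bases before the start, a motif found in 1.55% of all windows and added to the search after that window had been read. The Slc43a2 window held 3 GC boxes and 2 CCAAT boxes, and the Slc38a11 window 2 GC boxes that share a base. A GC box stood in 46.9% of the transporter windows and 32.7% of all windows. The E-box stood in 14.1% and 6.02%, the antioxidant core in 14.1% and 10.2%, and the CCAAT box in 25% and 33.8%. These are matches of letters only.

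CAR cells had 3 of the 60 transporter genes called higher and 3 called lower, which is 5.0% in each direction. Over all genes 8.56% were called higher and 6.42% lower, so the share of called carriers lay near or under the background. At an unadjusted p under 0.05 there were 22 of the 60 and 7004 of all 19938 genes, the background for every count at that cut below. Slc6a6, Slc38a6 and Slc43a2 were the genes called higher and Slc38a1, Slc7a12 and Slc38a11 those called lower. The same 6 genes were the only ones at least 2-fold apart from the array labelled PaS in both CAR arrays, a criterion with no test that 10.9% of all genes met upward and 8.92% downward. With CAR array 1 alone, 3 carriers lay 2-fold or more above the PaS value and 6 below it, and with CAR array 2 alone 11 and 4. The median difference of the 60 genes was -0.07 and that of all genes -0.10. For 47 of the 60 the value labelled PaS lay outside the range of the CAR pair, 78.3% against 84.2% of all genes.

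**Figure D1:**
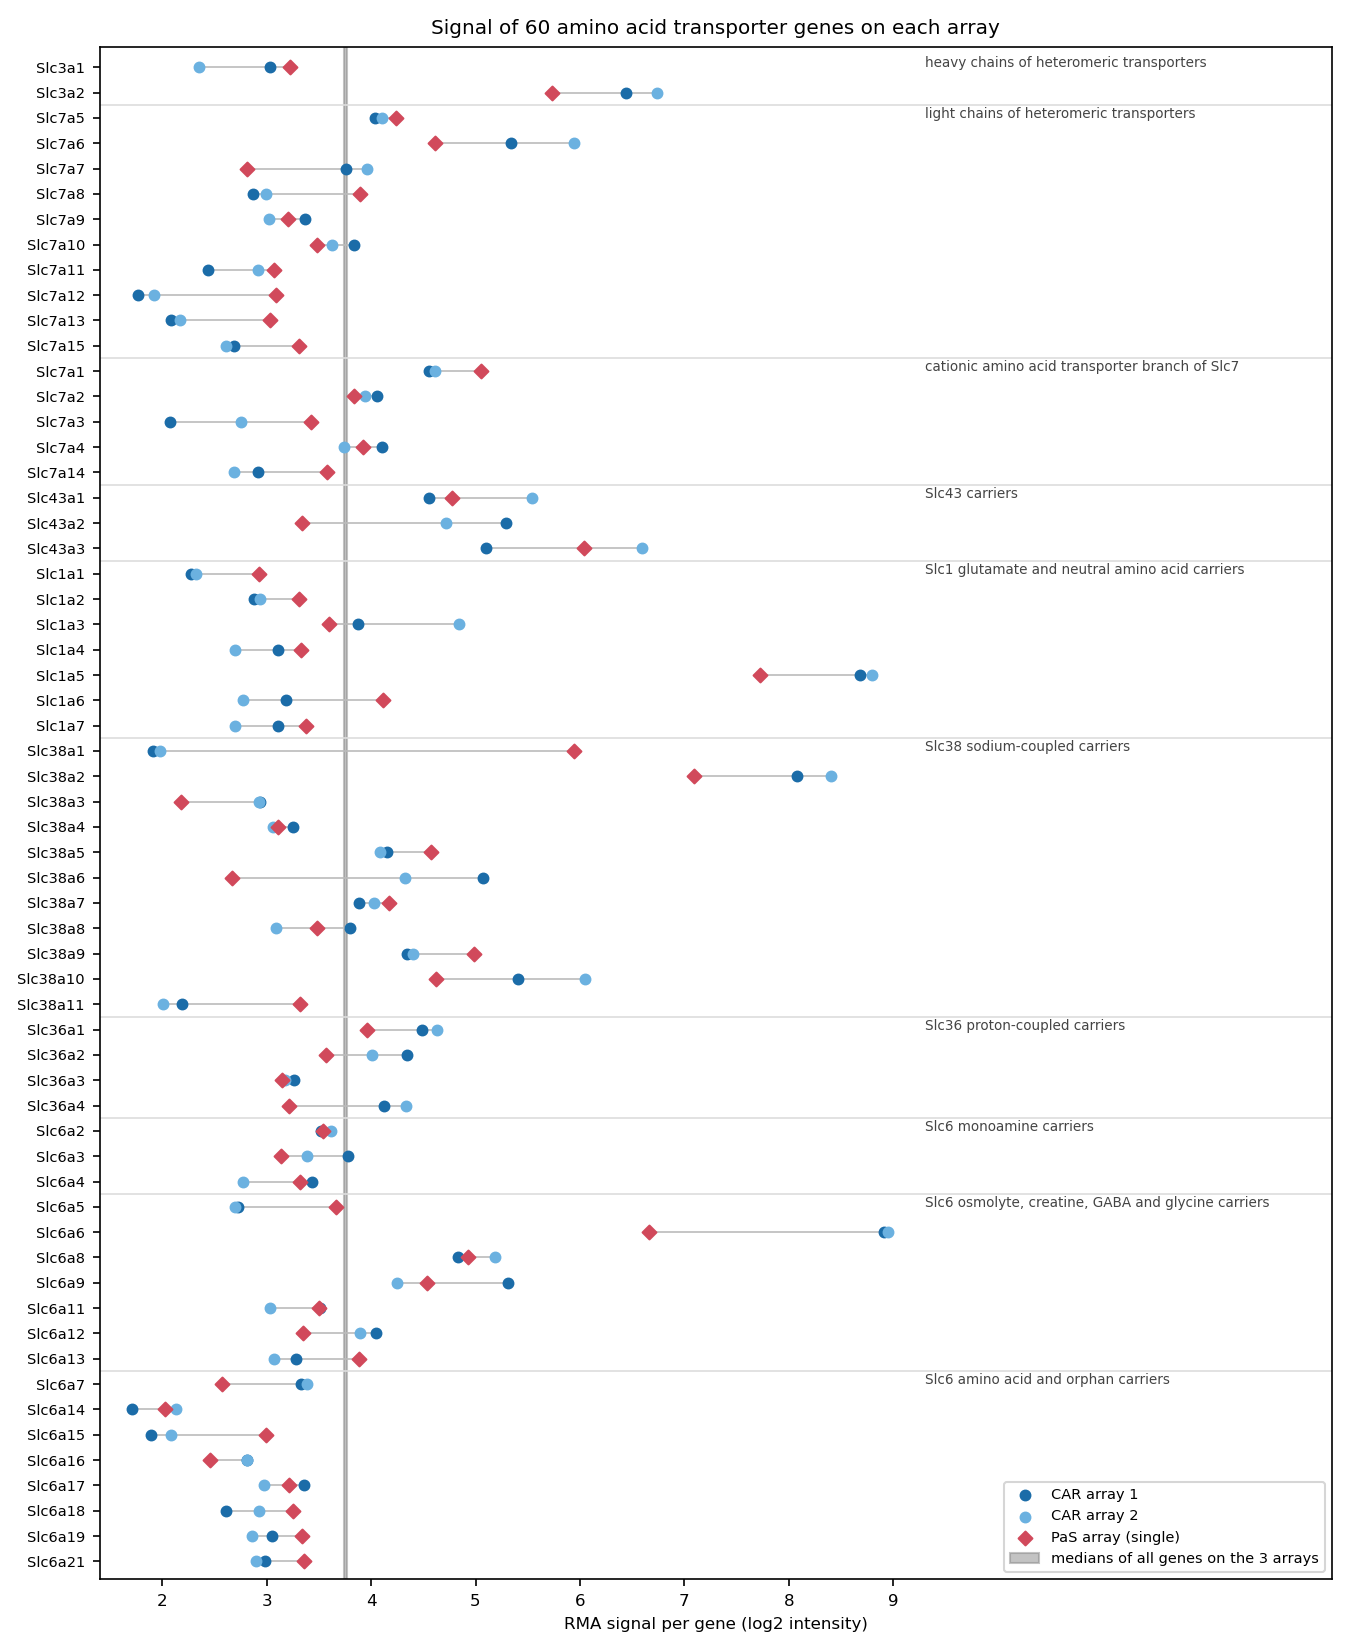
Signal of the 60 amino acid transporter genes (log2 RMA intensity) on CAR array 1, CAR array 2 and the single PaS array, grouped by class; the grey band spans the medians of all genes, 3.74 to 3.77. Slc38a1 shows the widest gap, with both CAR arrays under 2 and the PaS array at 5.94.

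The taurine transporter Slc6a6 had the largest increase. It read 8.91 and 8.95 on the CAR arrays and 6.66 on the array labelled PaS. Taurine is a sulfur amino acid that cells hold at high concentration as an osmolyte and antioxidant. The CAR arrays were nearly equal and both stood above the PaS value by 4.83-fold (2.27 ± 0.28, SE, on the log2 scale; limma adjusted p = 0.0165). The gene was not dim on any array. With values under 4 raised to 4 the difference was still 2.27, with an adjusted p of 0.0765 from a fit whose prior held 0.06 degrees of freedom.

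The other 6 genes of the class of Slc6 carriers for osmolytes, creatine and transmitters did not pass the test. The creatine transporter Slc6a8 read 4.83 and 5.19 in CAR cells and 4.93 on the array labelled PaS, inside the CAR range. Slc6a9, which carries glycine and supplies red cell precursors, differed more between the CAR arrays (5.31 and 4.25) than from PaS (4.54). The betaine and GABA carrier Slc6a12 had a difference of 0.62 ± 0.28 and its relative Slc6a13, the next gene on the chromosome, one of -0.70 ± 0.29. Slc6a11, another GABA carrier, stood at -0.23, and the neuronal glycine carrier Slc6a5 at -0.95 ± 0.28 (adjusted p = 0.0782), dim on all 3 arrays.

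The remaining Slc6 genes were mostly dim. Among the 3 monoamine carriers, of noradrenaline (Slc6a2), dopamine (Slc6a3) and serotonin (Slc6a4), differences ran from -0.23 to 0.45, and limma called 0, with 0 also at an unadjusted p under 0.05. The 8 amino acid and orphan carriers of the family were dim on every array. They include the epithelial transporters Slc6a14, Slc6a18 and Slc6a19, the neuronal carriers Slc6a7, Slc6a15 and Slc6a17, and the orphans Slc6a16 and Slc6a21. Their differences ran from -1.01 for Slc6a15 to 0.79 for Slc6a7, with 0 called by limma and 2 at an unadjusted p under 0.05. After quantile normalization Slc6a7 (1.27) and Slc6a16 (0.90) were called higher and the median of the 8 turned from -0.24 to 0.13. With a trended prior Slc6a15 was called lower (adjusted p = 0.0487). Slc6a16 had exactly equal deposited intensities on both CAR arrays (2.81 on the log2 scale), as did 73 genes in all.

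Sodium-coupled Slc38 carriers were called in both directions. The family takes up glutamine, alanine and other small neutral amino acids. Of its 11 genes CAR cells had 1 called higher and 2 called lower, with a median difference of -0.04 that was 0.20 after quantile normalization. Slc38a1, a glutamine carrier of the plasma membrane, read 1.91 and 1.98 on the CAR arrays and 5.94 on the array labelled PaS. Its CAR values were dim and its PaS value was not. The log2 difference was -3.99 ± 0.28 (95% confidence interval -4.70 to -3.28; limma adjusted p = 0.00914). Since the CAR values lay near the 5th percentile of their arrays, the size is uncertain, and with values under 4 raised to 4 the difference was -1.94.

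The Slc38a1 difference depended on the probe set. The gene has 2, and the other read 2.91 and 3.26 in CAR cells and 3.58 on the array labelled PaS, dim throughout, with a difference of -0.49 ± 0.31 (adjusted p = 0.318 over 21789 probe sets). The mean of the pair gave -2.24 ± 0.29 (adjusted p = 0.0192). Both probe sets were lower in CAR cells, but the sizes were 3.50 log2 units apart. Among the 999 genes with several probe sets the median range was 0.57, and 8 genes had a range at or above that of Slc38a1.

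Slc38a2 lies next to Slc38a1 and went the other way. It encodes the carrier that many cells induce when amino acids are withdrawn. It read 8.08 and 8.40 in CAR cells and 7.09 on the array labelled PaS. Both CAR arrays lay above the PaS value, with a log2 difference of 1.15 ± 0.30 (95% confidence interval 0.38 to 1.92), yet it missed the threshold (adjusted p = 0.0626). It passed after centring (0.0313), after quantile normalization (0.0374), with the dimmer genes left out (0.0495) and with a robust prior (0.0470). Slc38a4, the neighbour of Slc38a2 on its other side, stood at 0.05. The difference between the differences of Slc38a1 and Slc38a2 was not tested.

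Slc38a6 was the other called increase in the family. It read 5.07 and 4.32 in CAR cells against 2.67 on the array labelled PaS, 4.06-fold in favour of CAR cells (2.02 ± 0.40 on the log2 scale; adjusted p = 0.0364). The CAR arrays were 0.75 apart, both above the PaS value, which was dim. With values under 4 raised to 4 the difference was 0.69, and the gene was not called. The size of the fold thus rests on the low PaS value. The poorly characterised Slc38a11 read 2.19 and 2.01 against 3.32 (log2 difference -1.21 ± 0.29; adjusted p = 0.0497). It was dim on all arrays and quantile normalization gave -0.80 with an adjusted p of 0.0542, without a call.

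Slc38a9, the lysosomal arginine sensor and carrier that signals to mTORC1, gave opposite answers from its 2 probe sets. The brighter read 4.34 and 4.40 in CAR cells and 4.99 on the array labelled PaS (log2 difference -0.62 ± 0.28; adjusted p = 0.181). The other read 4.30 and 4.13 against 2.83, a difference of 1.38 ± 0.29 with an adjusted p of 0.0425 over all probe sets. The mean of both was 0.38 ± 0.28 (adjusted p = 0.378). No direction can be given for this gene. Probe sets of opposite sign occurred in 30.3% of the genes with several.

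**Figure D2:**
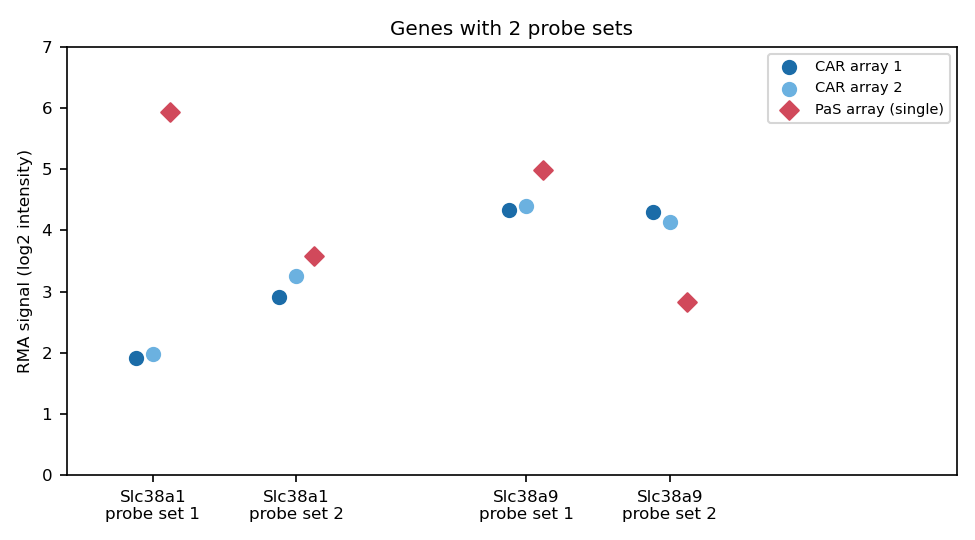
Signal (log2 RMA intensity) of both probe sets of Slc38a1 and Slc38a9 on the 3 arrays; probe set 1 has the higher mean. For Slc38a1 the PaS array stands at 5.94 on probe set 1 and at 3.58 on probe set 2; for Slc38a9 it stands above both CAR arrays on probe set 1 and below them on probe set 2.

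The other Slc38 members did not pass. Slc38a10 read 5.41 and 6.05 in CAR cells and 4.62 on the array labelled PaS, a difference of 1.12 ± 0.37 (adjusted p = 0.0999). Slc38a3, a glutamine carrier of liver and brain, was dim throughout with a difference of 0.75, and passed after quantile normalization (1.31; adjusted p = 0.0103). The related Slc38a5 stood at -0.45, the lysosomal glutamine carrier Slc38a7 at -0.22 and Slc38a8 at -0.04.

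The obligate exchangers were described from their heavy chains. Slc3a2 (CD98, 4F2hc), the partner that brings most of the Slc7 light chains to the cell surface, read 6.44 and 6.74 in CAR cells and 5.73 on the array labelled PaS. Both CAR arrays lay above the PaS value by 0.71 and 1.01, and the gene did not pass (log2 difference 0.86 ± 0.30, 95% confidence interval 0.10 to 1.63; adjusted p = 0.112). Slc3a1, the heavy chain of the cystine transporter of kidney and gut, was dim on all arrays at 3.03 and 2.35 against 3.22.

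Light chains did not share one direction. Of 10, 1 was called lower and 0 higher, with a median difference of -0.28. Slc7a5 (LAT1), the leucine importer that feeds mTORC1, read 4.04 and 4.10 in CAR cells and 4.24 on the array labelled PaS. That is a difference of -0.16 ± 0.28 with a 95% confidence interval of -0.87 to 0.54, an interval too wide to show that the populations are alike. Its PaS value lay above both CAR values, by less than the SE.

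Slc7a6 and Slc7a7 exchange cationic for neutral amino acids and export arginine. Slc7a6 read 5.34 and 5.94 against 4.61 (log2 difference 1.03 ± 0.36; adjusted p = 0.113). Slc7a7 read 3.76 and 3.96 against 2.81 (1.04 ± 0.29; adjusted p = 0.0690), with the CAR values near the median of all genes and the PaS value below it. Slc7a8 (LAT2), which carries large neutral amino acids, lay the other way at 2.87 and 2.99 against 3.89 (-0.95 ± 0.28; adjusted p = 0.0789). The CAR pair lay on one side of the PaS value for each of these 3, and none passed. Slc7a7 passed after centring (adjusted p = 0.0409) and after quantile normalization (0.00840).

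Slc7a11, the cystine importer for glutathione synthesis whose promoter is printed above, was dim on all arrays. It read 2.44 and 2.92 in CAR cells and 3.07 on the array labelled PaS (log2 difference -0.39 ± 0.33; adjusted p = 0.455), and after quantile normalization the difference was 0.04. Any link between the C/EBP-ATF cores of its promoter window and this dim signal was not tested. Slc7a12, a light chain found in kidney, was the called decrease of the class at 1.77 and 1.92 against 3.09 (-1.25 ± 0.28; adjusted p = 0.0467). It too was dim on every array, and quantile normalization gave -0.74 with an adjusted p of 0.0849. The epithelial chains Slc7a9, Slc7a13 and Slc7a15 and the serine and alanine exchanger Slc7a10 had differences of -0.01, -0.90, -0.66 and 0.25.

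In the cationic branch of Slc7 limma called 0 of 5 genes, and 2 had an unadjusted p under 0.05. Slc7a1 (CAT1), the widely expressed arginine and lysine importer, read 4.55 and 4.61 in CAR cells and 5.05 on the array labelled PaS (log2 difference -0.47 ± 0.28; adjusted p = 0.288). After quantile normalization its difference was -0.87 with an adjusted p of 0.0414. Slc7a2, which supplies arginine in activated macrophages, stood at 0.15 and Slc7a3, a carrier of brain and embryo, at -1.01. Slc7a4 and Slc7a14, whose transport activity is less settled, stood at 0.00 and -0.78.

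Slc43a2 (LAT4), which lets branched-chain amino acids and phenylalanine out of cells by facilitated diffusion, was called higher in CAR cells. It read 5.29 and 4.72 on the CAR arrays and 3.34 on the array labelled PaS, 3.16-fold apart (1.66 ± 0.35 on the log2 scale; adjusted p = 0.0413). Both CAR arrays lay above the PaS value, which was dim, and with values under 4 raised to 4 the difference was 1.0 without a call. Its relative Slc43a1 (LAT3) read 4.55 and 5.54 against 4.77. Slc43a3, which is known as a purine carrier in spite of its family, read 5.10 and 6.59 against 6.04. For both of these the PaS value fell between the CAR arrays.

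In the Slc1 family limma called 0 of 7 genes, and 2 had an unadjusted p under 0.05. Slc1a5 (ASCT2), a main glutamine entry route of proliferating cells, had the lowest p of the family. It read 8.68 and 8.80 in CAR cells and 7.72 on the array labelled PaS, 2.03-fold apart (1.02 ± 0.28 on the log2 scale, 95% confidence interval 0.30 to 1.73; adjusted p = 0.0688). It passed after centring (adjusted p = 0.0428) and after quantile normalization (0.0359). Its relative Slc1a4 (ASCT1) was dim at 3.11 and 2.70 against 3.33.

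The glutamate carriers of nerve and glia were mostly dim. Slc1a3 (GLAST) read 3.87 and 4.84 in CAR cells and 3.6 on the array labelled PaS, with the CAR pair 0.97 apart (log2 difference 0.75 ± 0.46; adjusted p = 0.303). Slc1a6, a carrier of cerebellar neurons, stood at -1.13 ± 0.32 (adjusted p = 0.0721) and passed after centring (0.0413) and after quantile normalization (0.0217). With values under 4 raised to 4 its difference was -0.11. The gene was called lower there, in a fit whose prior held 0.06 degrees of freedom. Slc1a1, Slc1a2 and Slc1a7 had differences between -0.62 and -0.40 and were dim on all arrays.

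All 4 Slc36 genes had positive differences, and 0 passed limma's test, with 1 at an unadjusted p under 0.05. Slc36a1 (PAT1), which exports small amino acids from lysosomes, read 4.49 and 4.63 in CAR cells and 3.96 on the array labelled PaS (log2 difference 0.59 ± 0.28; adjusted p = 0.203). Slc36a4, a high-affinity proline and tryptophan carrier, read 4.12 and 4.33 against 3.21 (1.01 ± 0.29; adjusted p = 0.0736) and passed after centring (0.0454) and quantile normalization (0.0135). Slc36a2 and Slc36a3 stood at 0.60 and 0.07. The family's median was 0.60 and stayed at 0.60 or above after centring and quantile normalization. Slc36a1, Slc36a2 and Slc36a3 are direct neighbours on chromosome 11 in the RefSeq annotation of GRCm38.p6, where 7 neighbouring pairs of the transporter genes had the same sign in 4 cases and opposite signs in 3.

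**Figure D3:**
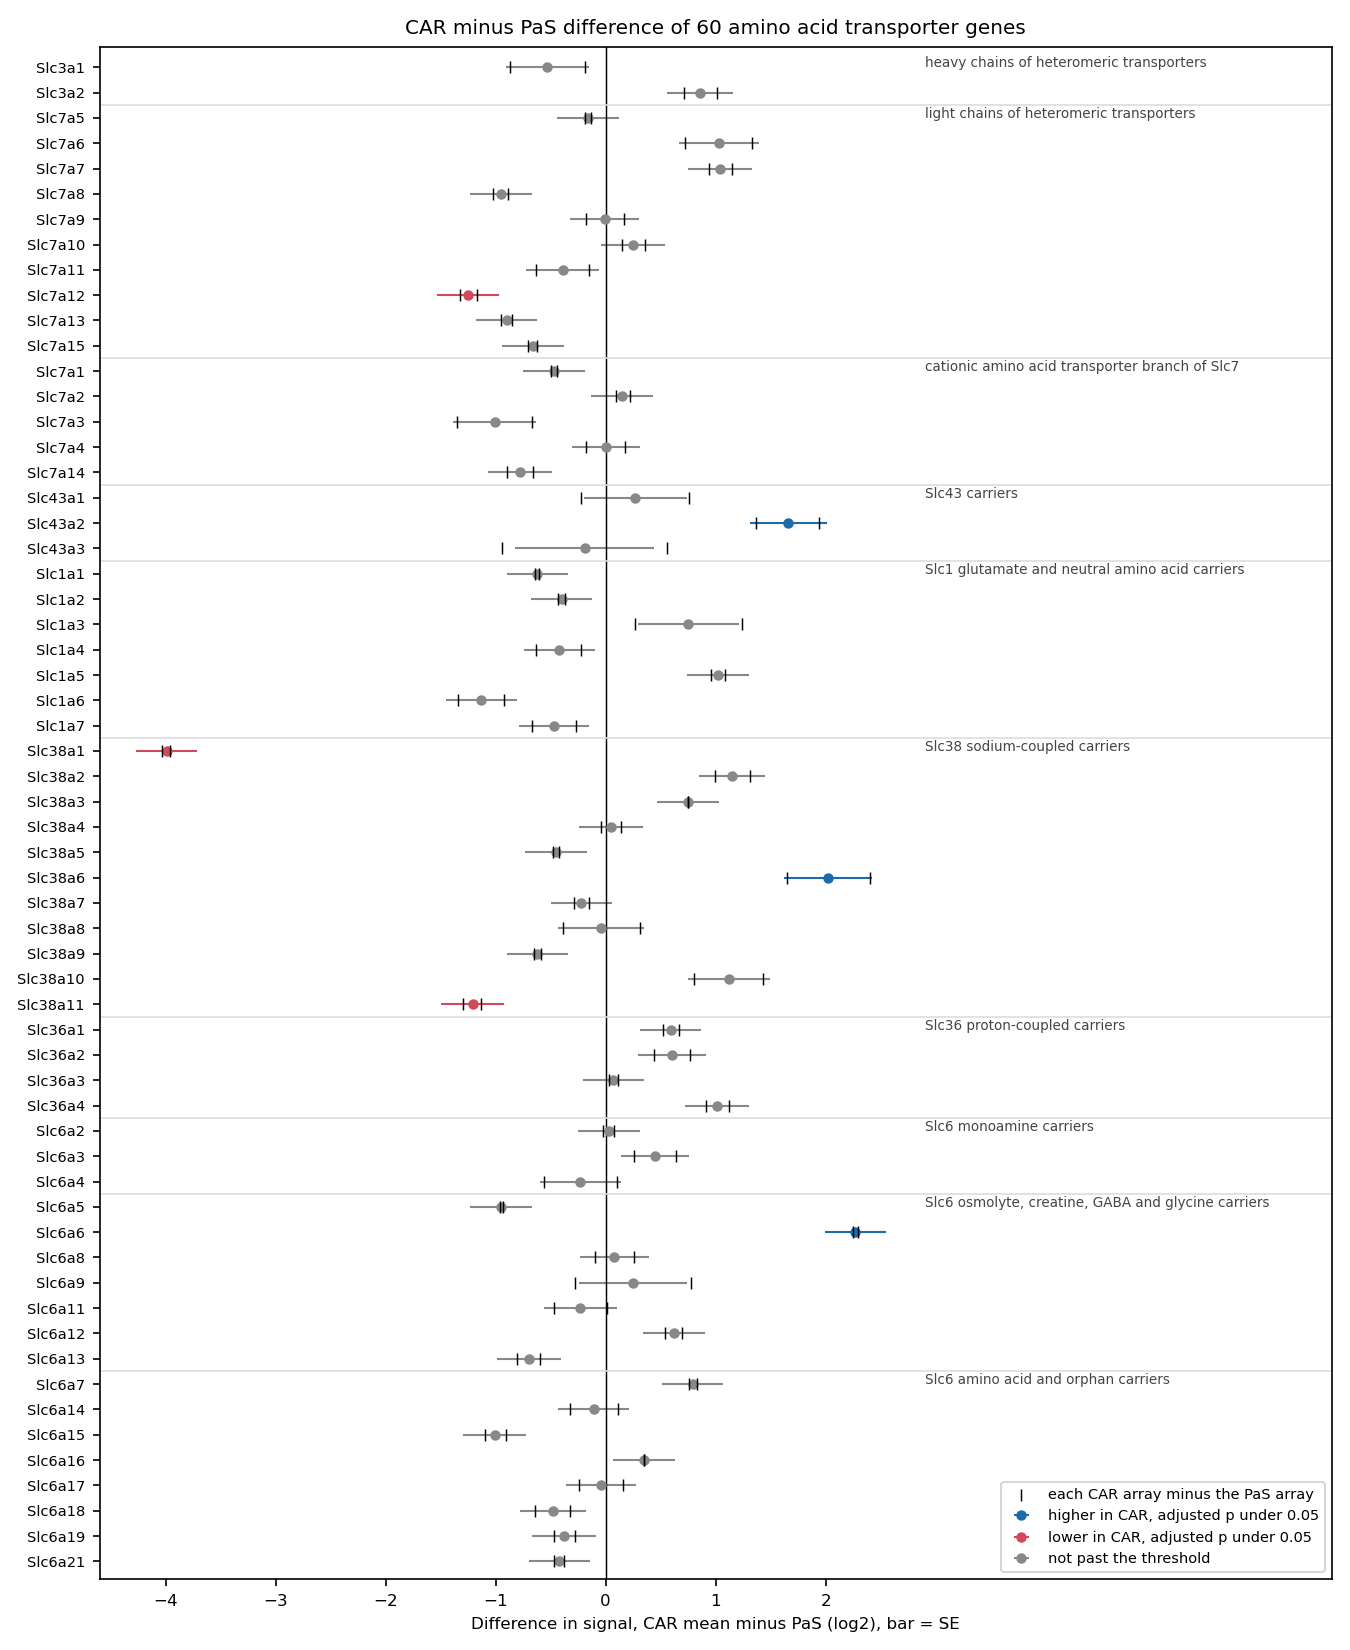
CAR mean minus PaS (log2) for the 60 genes, with limma's SE as bars and each CAR array's own difference as black ticks; blue and red mark genes with adjusted p under 0.05. Slc6a6, Slc38a6 and Slc43a2 stand at 2.27, 2.02 and 1.66, and Slc38a1 at -3.99.

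Called increases and decreases lay at different levels. Of the 23 transporter genes with a mean at or above that of the median gene (3.78), 3 were called higher and 0 lower, with a median difference of 0.59. Of the 37 below it 0 were called higher and 3 lower, with a median of -0.40. All genes were split in a like way. At or above that level 16.6% were called higher and 4.06% lower with a median of 0.37, and below it 0.492% and 8.79% with a median of -0.40. Since a gene's mean includes the values compared, these counts are a description. Of the transporter genes 28 were dim on all 3 arrays, 46.7% against 37.5% of all genes. Slc7a12 and Slc38a11 were among these 28, and their differences were 0 when values under 4 were raised to 4. In 12 genes that were not called the difference was at least 0.9 in size, 6 in each direction. The like count over all genes was not made.

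**Figure D4:**
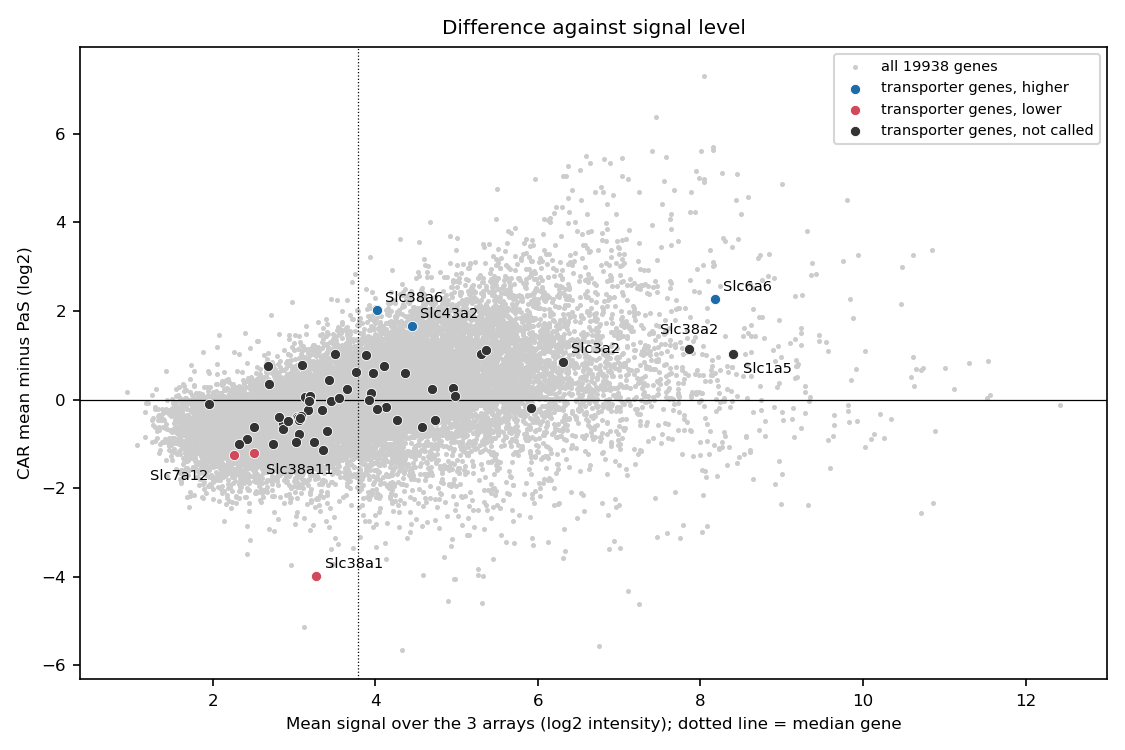
Difference between CAR mean and PaS (log2) against the mean signal over the 3 arrays for all 19938 genes (grey) and the 60 transporter genes (coloured); the dotted line is the median gene at 3.78. The called increases lie to its right and the called decreases, Slc38a1, Slc7a12 and Slc38a11, to its left.

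Unequal CAR arrays limited a few genes. The CAR arrays were at least 0.9 apart for 4 of the 60, Slc43a3 (1.49), Slc6a9 (1.06), Slc43a1 (0.98) and Slc1a3 (0.97). Over the 60 genes the SD of the difference between the CAR arrays was 0.44, against 0.94 for the CAR mean minus PaS. The same values over all genes were 0.45 and 0.99.

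The pathways that carriers feed were read from lists of related genes. Over all genes 8.56% were called higher and 6.42% lower, the background for the counts of each list, and no list was tested as a set. Differences were positive for 8990 and negative for 10948 of all genes. Among genes with a mean at or above that of the median gene they were positive for 6705 and negative for 3264. Of 25 measured enzymes of glutamine, serine, proline and branched-chain amino acid metabolism, 5 were called higher in CAR cells and 0 lower. Differences were positive for 15 and negative for 10, with a median of 0.20. Oat, which links ornithine to proline and glutamate, read 7.27 and 7.48 in CAR cells and 5.0 on the array labelled PaS (log2 difference 2.38 ± 0.29; adjusted p = 0.0164). The mitochondrial aspartate aminotransferase Got2 was higher by 1.70, the last enzyme of serine synthesis Psph by 1.55 and Bckdhb, a subunit of the branched-chain keto acid dehydrogenase, by 1.49, each called. The PaS values of these 3 (3.49, 3.17 and 2.42) were dim, and with values under 4 raised to 4 the differences were 1.19, 0.72 and 0.04. At that floor the list had 1 gene called higher.

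Lysosomal sensing genes were called in both directions. Of 26 measured, 2 were called higher and 2 lower. Most differences, 21 against 5, were positive, with a median of 0.39. Lamtor2, of the complex that anchors Rag GTPases to the lysosome, read 4.75 and 5.57 against 3.07 (log2 difference 2.08 ± 0.42; adjusted p = 0.0373), and Tsc1, an inhibitor of mTORC1, was higher by 1.46. The Rag GTPases Rragb and Rragd were called lower, with differences of -1.44 and -1.29. Their CAR values lay between 2.05 and 2.52, dim, against 3.56 and 3.79.

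Among 21 targets and kinases of the ATF4 amino acid response, 1 was called higher and 0 lower. Of these genes 16 had positive and 5 negative differences, with a median of 0.15, and 12 of the 21 were dim on no array. The called gene was Ddit4, an mTORC1 inhibitor that also responds to hypoxia and glucocorticoids (4.97 and 5.15 against 3.62; adjusted p = 0.0368). Nupr1, Phgdh and Atf5 had differences of 1.42, 1.39 and 1.04 and did not pass, and Phgdh was unequal between the CAR arrays at 3.96 and 5.65.

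In glutathione metabolism 1 of 12 measured genes was called higher and 1 lower. Differences were positive for 6 and negative for 6, with a median of -0.23. Ggt5, a gamma-glutamyl transferase that acts on extracellular glutathione conjugates, was called higher at 6.57 and 6.80 against 4.63 (log2 difference 2.06 ± 0.29; adjusted p = 0.0213). Ggct, which breaks down gamma-glutamyl amino acids, was called lower at 2.69 and 3.32 against 4.65 (-1.64 ± 0.37; adjusted p = 0.0455). Cbs and Gclm stood at -1.12 and -1.05 without passing. The list had 4 genes called lower after quantile normalization and 2 after centring.

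Of 18 aminoacyl tRNA synthetases 1 was called higher and 0 lower. Differences were positive for 10 and negative for 8, with a median of 0.21. The called gene was Gars, the glycyl enzyme (5.48 and 5.56 against 4.04; adjusted p = 0.0339). Lars, Iars and Tars had differences of 1.21, 1.06 and -1.0 and did not pass. After quantile normalization 2 synthetases were called lower. Of 22 other amino acid and peptide carriers 0 were called in either direction by limma and 2 had an unadjusted p under 0.05, with a median of -0.29. After quantile normalization 4 of the 22 were called lower, and after centring 1. Slc16a10, an aromatic amino acid carrier, and Slc15a3 and Slc15a4, peptide and histidine carriers of endolysosomes, stood at -1.05, -1.03 and -0.63, and Slc15a2 at -0.51. The 6 lists hold 119 measured genes, of which 10 were called higher and 3 lower, against 8.56% and 6.42% of all genes.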

How the data were processed

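The values deposited by the authors are linear intensities, with 1 value per probe set and array, made with Affymetrix Expression Console and RMA per the submitters' processing notes. Per the labels' protocols, cDNA was amplified with a NuGEN whole-transcript kit. Software versions: not given in the sources used here, and likewise the build. Log2 was taken with no pseudocount. No detection calls were used, so a dim value cannot be told from background. Of 35556 probe sets, 21789 carried 1 symbol, 1621 several and 12146 none here. Identifiers of 21698 matched the current gene table, which supplied symbols. Each of the 19938 genes was read from its probe set of highest mean log2.

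CAR and PaS were compared with limma 3.58.1 (R 4.3.3; lmFit, eBayes, two-sided, no covariate). With 2 arrays against 1 there is 1 residual degree of freedom, and moderation added 4.20 around a prior SD of 0.25. The variance of PaS is taken to be that of CAR. Precision is limited by how few arrays there are. The fit was tested on simulated data. Members, gene lists and tests were chosen with earlier results of these data known. Full values are given for called genes and 10 carriers chosen for their roles, and in each list for at most the 4 genes with the largest difference. Alternatives were centring, quantile normalization, the mean of probe sets, a filter and a floor on dim values, a trended or robust prior, each CAR array left out and, added after the values were seen, each probe set tested on its own.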

Additional observations from a re-analysis of the deposited data

How the results depend on the processing

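The 6 calls among the 60 transporter genes were kept with the mean of probe sets, a trended prior, a robust prior and centring. Slc38a11 and Slc7a12 lost theirs after quantile normalization, which moved the median of all genes from -0.10 to 0.03. Calls toward CAR cells numbered 7 after centring, 10 after quantile normalization and 0 with values under 4 raised to 4, and calls the other way 0 with the dimmer genes left out, where Slc38a1, Slc7a12 and Slc38a11 were not tested. Over all genes the higher and lower calls were 2581 and 2147 after centring and 2839 and 2532 after quantile normalization. There were 510 lower calls with the dimmer genes left out and 88 higher calls with the floor. The floor left 10385 genes equal on both CAR arrays, so that its prior held 0.06 degrees of freedom and its calls say little. In the companion lists 10 genes were called higher and 3 lower. The higher count was 17 after quantile normalization and 1 with the floor, and the lower 5 after centring, 16 after quantile normalization, 0 with the dimmer genes left out and 6 with the floor. Genes at least 2-fold higher in both CAR arrays numbered 7 after quantile normalization and 1 with the floor, and those lower 1 and 1, or 0 with the dimmer genes left out. Without 1 CAR array at a time these counts ran from 3 to 11 higher and from 4 to 6 lower. Leaving out a CAR array leaves no spread, so no test was made there.

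Signs turned for 10 genes after quantile normalization, none called: Slc38a8 (0.20), Slc43a1 (-0.15), Slc6a11 (0.01), Slc6a14 (0.54), Slc6a17 (0.31), Slc6a4 (0.10), Slc6a8 (-0.36), Slc6a9 (-0.05), Slc7a11 (0.04) and Slc7a9 (0.34). Slc7a9 was 0.01 after centring, and Slc38a9 was 0.38 with the mean of probe sets and 1.38 on its second. The causes were not tested. No paired analysis was possible because the groups come from different mice of different genotypes.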
